A study of Rattus norvegicus with 320 samples.

Results

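The microRNAs (miRNAs) described here are the 4 of 616 in the count table that are named miR-203a-3p, miR-203a-5p, miR-203b-3p and miR-205. The rule takes by name every miR-203, miR-203a, miR-203b or miR-205 with or without its arm. Their levels were followed across 11 organs and 4 ages of the rat, with the thymus in most detail. The measured value is the sequencing count of each mature miRNA in each library. A level is given in CPM, the count scaled to a library total of 1000000.

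The study sequenced small RNA from male and female rats of the Fischer 344 strain, aged 2, 6, 21 or 104 weeks, with 4 rats for each sex and age and 10 organs from each rat. The adrenal gland, brain, heart, kidney, liver, lung, skeletal muscle, spleen and thymus came from both sexes, the testis from males and the uterus from females. All 80 groups of organ, sex and age were untreated. Of 320 libraries, 318 were used: a male brain library of week 6 (replicate 3) and a female spleen library of week 104 (replicate 4) were left out, as the study itself did. The study removed them because they grouped with uterus libraries and not with their own organ. Totals ran from 315550 to 10571766 counts per library (median 2848156), and from 878503 to 2834510 among the 32 thymus libraries, which are 8 for each age.

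As background, a mature miRNA guides a silencing complex to messenger RNAs that pair with its seed, the bases 2 to 8 from its 5′ end. In mammals miR-203 is best known from the upper layers of the skin epithelium, where it restrains the transcription factor p63 and lets keratinocytes leave the dividing layer. miR-205 is known from the basal layer of stratified epithelia and from glandular epithelium, and shares with the miR-200 family the repression of the regulators ZEB1 and ZEB2.

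Skin, oesophagus and other organs lined mainly by stratified epithelium are not among the 11 organs, and cell types were not separated. miR-203a-3p was detected above 3 counts in all 318 libraries, the liver, kidney and lung among them, and its highest mean at each age was in the liver or the kidney. The miRNAs are therefore called by their names below, and no cell type is read from them.

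The mature sequences show that the miRNAs of this small group do not act as a single seed family. Each is printed 5′ to 3′ as in the count table, with its seed in capitals:
miR-203a-3p: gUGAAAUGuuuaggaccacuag
miR-203b-3p: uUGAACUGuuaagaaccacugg
miR-203a-5p: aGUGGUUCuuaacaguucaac
miR-205: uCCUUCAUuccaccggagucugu
All 4 matched a RefSeq mature miRNA of the same name and sequence on the GRCr8 assembly, as did 551 of the 616. No other miRNA of the 616 had any of these seeds. miR-203a-3p and miR-203b-3p differ at 5 of 22 positions, of which 1 lies in the seed (A6C, miR-203a-3p first, counted from 1 at the 5′ end). miR-205 lies apart from them, at chr13:107564588-107564610 on the minus strand.

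miR-203a and miR-203b come from opposite strands of the same stretch of chromosome 6. miR-203a-3p lies at chr6:137020756-137020777 on the plus strand and miR-203b-3p at chr6:137020716-137020737 on the minus strand. Their hairpins, Mir203 and Mir3545, share 97 bases. The mature sequences are shown because miR-203a-5p and miR-203b-3p face each other there: a run of 20 bases of the 21-base miR-203a-5p is complementary to the 22-base miR-203b-3p. Whether counting used the strand of a read is not given in the sources used here.

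Of the 4 miRNAs, 3 were abundant enough to describe. miR-203a-3p summed to 286414 counts over the 318 libraries, miR-205 to 219943 and miR-203b-3p to 67336. miR-205 was at 0 in 1 library and miR-203b-3p in 3 libraries. miR-203a-5p summed to 343 counts, was at 0 in 167 libraries, exceeded 3 counts in 28 and never exceeded 9. Its highest mean was 1.98 CPM, in the liver at week 21, so no fold change is given for it. Confidence intervals below are exact Clopper-Pearson 95% intervals of a share of counts, and a count of 3 is taken as the floor of detection. Both cover counting error only.

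Several libraries stood apart before any comparison. In the thymus at week 104, male replicates 1 and 4 had miR-181a-5p, the most abundant miRNA of thymocytes, at 1.39% and 1.83% of counts, against 2.33% to 10.6% in the other 6 libraries. The same libraries had a summed miR-200 family, a marker of epithelium, of 982 and 1665 CPM against 4832 to 13307 CPM. Their striated muscle miRNAs summed to 988 and 560 CPM against 82.4 to 156 CPM. The main results at week 104 in the thymus are therefore also given without these 2 libraries, an alternative chosen after seeing the data. Without them the thymus means of week 104 were 774 CPM for miR-203a-3p, 288 CPM for miR-203b-3p and 5627 CPM for miR-205, where all 8 libraries gave 948, 403 and 4319 CPM. Male replicate 3 of week 104 had 93924 CPM of red-cell miRNAs, where the other 7 libraries had 6286 to 29018 CPM. Male thymus replicate 4 of week 6 was the shallowest thymus library, with 878503 counts. Its miR-181a-5p was at 21.5% of counts against 33.9% to 42.4% in the other 7 libraries of that age, its thymocyte and lymphocyte miRNAs summed to 305409 CPM against 433932 to 504314 CPM, and its other epithelial and secretory miRNAs to 6435 CPM against 2381 to 3365 CPM. It also had the most miR-205 of week 6, and without it the rise of miR-205 from week 6 to 21 was log2 1.05 (edgeR adjusted p = 0.0330).

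In skeletal muscle at week 2, female replicate 1 and male replicates 2 and 4 stood apart. Their miR-203a-3p was at 615, 246 and 2158 CPM against 22.3 to 35.3 CPM in the other 5 libraries. Their miR-205 was at 305, 132 and 697 CPM against 24.6 to 44.6 CPM. The summed miR-200 family was 277, 221 and 748 CPM there against 22.9 to 107 CPM, so epithelial miRNAs were high in the same libraries. Results in muscle are also given without these 3 libraries, likewise chosen after seeing the data.

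Across organs, miR-205 was the miRNA of this group most tied to the thymus. At week 2 its mean was 799 ± 76.3 CPM (SD, n = 8) in the thymus, 336 ± 34.4 (n = 8) in the lung, 275 ± 86.4 (n = 4) in the uterus and 239 ± 72.1 (n = 4) in the testis. The thymus did not overlap its neighbour in that order, whereas the lung, uterus, testis, skeletal muscle (164 ± 235, n = 8) and kidney (101 ± 25.7, n = 8) overlapped in turn. The other 5 organs had lower means, down to 8.45 CPM in the brain. Because these are whole organs, more cells of a type and more RNA per cell cannot be told apart, here or in any later result.

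The thymus stayed the highest organ for miR-205 at the other ages. Its mean was 934 ± 181.5 CPM at week 6, 1772 ± 286 at week 21 and 4319 ± 2839 at week 104 (SD, n = 8 each). The lung came next each time, at 373 ± 55.2, 440 ± 101 and 306 ± 169 CPM (n = 8 each), and its mean ± SD overlapped neither the thymus above it nor the organ below it. At week 104 the kidney (91.2 ± 37.6 CPM, n = 8) also stood apart from both neighbours, and the heart was lowest with 3.09 ± 2.29 CPM (n = 8). Of the 10 neighbouring pairs in the order, 8, 7, 8 and 7 overlapped at weeks 2, 6, 21 and 104. This overlap is of mean ± SD, and single libraries could overlap where it did not. At week 104 the lowest thymus library (264 CPM) lay within the range of the lung, 159 to 599 CPM. At week 6 the highest testis library (377 CPM) lay above the lowest lung library (294 CPM).

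The test over pairs of organs gave the same first place. edgeR's quasi-likelihood test compared all 55 pairs of organs at each age, and an organ was called highest when it exceeded each of the other 10 with an adjusted p under 0.05. The thymus was called highest for miR-205 at weeks 2, 6, 21 and 104, where it was called highest for 10.1%, 8.77%, 5.84% and 0.649% of the 616 miRNAs. Its smallest differences were log2 1.70 (SE 0.52) against the uterus at week 2, and 1.48 (SE 0.30), 2.06 (SE 0.37) and 3.81 (SE 0.48) against the lung at the later ages. At week 104 the thymus was thus called highest for 4 miRNAs in all, miR-205 among them.

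miR-203a-3p had no such single organ. At week 2 the liver had the highest mean (512 ± 58.0 CPM, n = 8), followed by the testis (436 ± 68.4, n = 4), skeletal muscle (397 ± 741, n = 8, through the 3 libraries named above), lung (395 ± 89.5, n = 8) and kidney (358 ± 73.4, n = 8). The kidney led at week 6 with 628 ± 63.6 CPM, and the liver at week 21 with 840 ± 260 CPM and at week 104 with 1187 ± 188 CPM (n = 8 each). At each of these ages the mean ± SD of the first organ overlapped that of the second. The thymus moved up this order, from the seventh of 11 places at weeks 2 and 6 (176 ± 49.4 and 150 ± 14.4 CPM) to the fourth at week 21 (339 ± 64.4) and the second at week 104 (948 ± 354). The lowest organ was the brain at weeks 2 and 6 (38.9 ± 7.32 CPM, n = 8, and 39.4 ± 7.20 CPM, n = 7) and skeletal muscle at weeks 21 and 104 (20.1 ± 9.04 and 23.8 ± 7.66 CPM, n = 8 each). Of the 10 neighbouring pairs 9, 8, 5 and 9 overlapped at the 4 ages.

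No organ was called highest for miR-203a-3p at any age. The liver exceeded the kidney by log2 0.14 at week 2 (edgeR largest adjusted p = 0.793), the kidney exceeded the uterus by 0.50 at week 6 (0.0609), and the liver exceeded the kidney by 0.29 at week 21 (0.206) and the thymus by 0.45 at week 104 (0.170). The liver was called highest for 6.17%, 4.22% and 4.38% of the miRNAs at weeks 2, 21 and 104, and the kidney for 1.62% at week 6. Several alternatives called these organs highest. For the kidney at week 6 they were a minimum mean count of 10 (0.55, adjusted p = 0.0465) and the 9 organs of both sexes, which leave out the uterus, with sex as a covariate (0.73, adjusted p = 0.000233) or, added after seeing the data, without it (0.73, adjusted p = 0.000233). For the liver at week 21 they were DESeq2 (0.50, adjusted p = 0.0233), the minimum count (0.55, adjusted p = 0.0161) and leaving out replicate 1 of every group (0.58, adjusted p = 0.0333). For the liver at week 104 they were DESeq2 (0.62, adjusted p = 0.0296), the minimum count (0.61, adjusted p = 0.0443), leaving out replicate 1 (0.79, adjusted p = 0.00289) and leaving out the 2 male thymus libraries (0.87, adjusted p = 0.00535). The value at week 2 turned to -0.05 with DESeq2 and to -0.31 without replicate 2 of every group. Each alternative gives the difference from the closest organ in its own fit, which need not be the organ named for the main fit.

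miR-203b-3p was highest in the kidney until week 21. Its kidney mean was 171 ± 59.3 CPM at week 2, 313 ± 42.2 at week 6 and 277 ± 43.8 at week 21 (n = 8 each). The adrenal gland came next at weeks 2 and 6 (121 ± 65.9 and 185 ± 61.4 CPM) and the liver at week 21 (158 ± 70.2 CPM). At week 104 the thymus had the highest mean (403 ± 257 CPM), then the kidney (197 ± 33.3) and the liver (188 ± 44.6), and these 3 overlapped in turn. The lowest organ at week 2 was the brain (2.37 ± 0.84 CPM), and at week 104 it was the uterus (0.676 ± 0.297 CPM, n = 4). Of the 10 neighbouring pairs 8, 6, 8 and 9 overlapped at the 4 ages.

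The kidney was called highest for miR-203b-3p at weeks 2, 6 and 21, by log2 0.69 (SE 0.29), 0.96 (SE 0.26) and 1.21 (SE 0.31). It was called highest for 1.46%, 1.62% and 2.27% of the miRNAs at those ages. With library size as the only scaling, the call at week 2 was lost (0.50, edgeR adjusted p = 0.150), as it was without replicate 1 (0.63, adjusted p = 0.108) or 4 (0.63, adjusted p = 0.137) of every group. At week 104 the thymus exceeded the kidney by log2 0.58 (SE 0.41, edgeR adjusted p = 0.257), which was not called. Library size alone gave 1.03 (adjusted p = 0.0268), and without the 2 male thymus libraries the sign turned, to -0.12. It turned to -0.16 without replicate 1 of every group. These alternatives, too, are against the closest organ in each fit, which need not be that of the main fit.

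**Figure D1:**
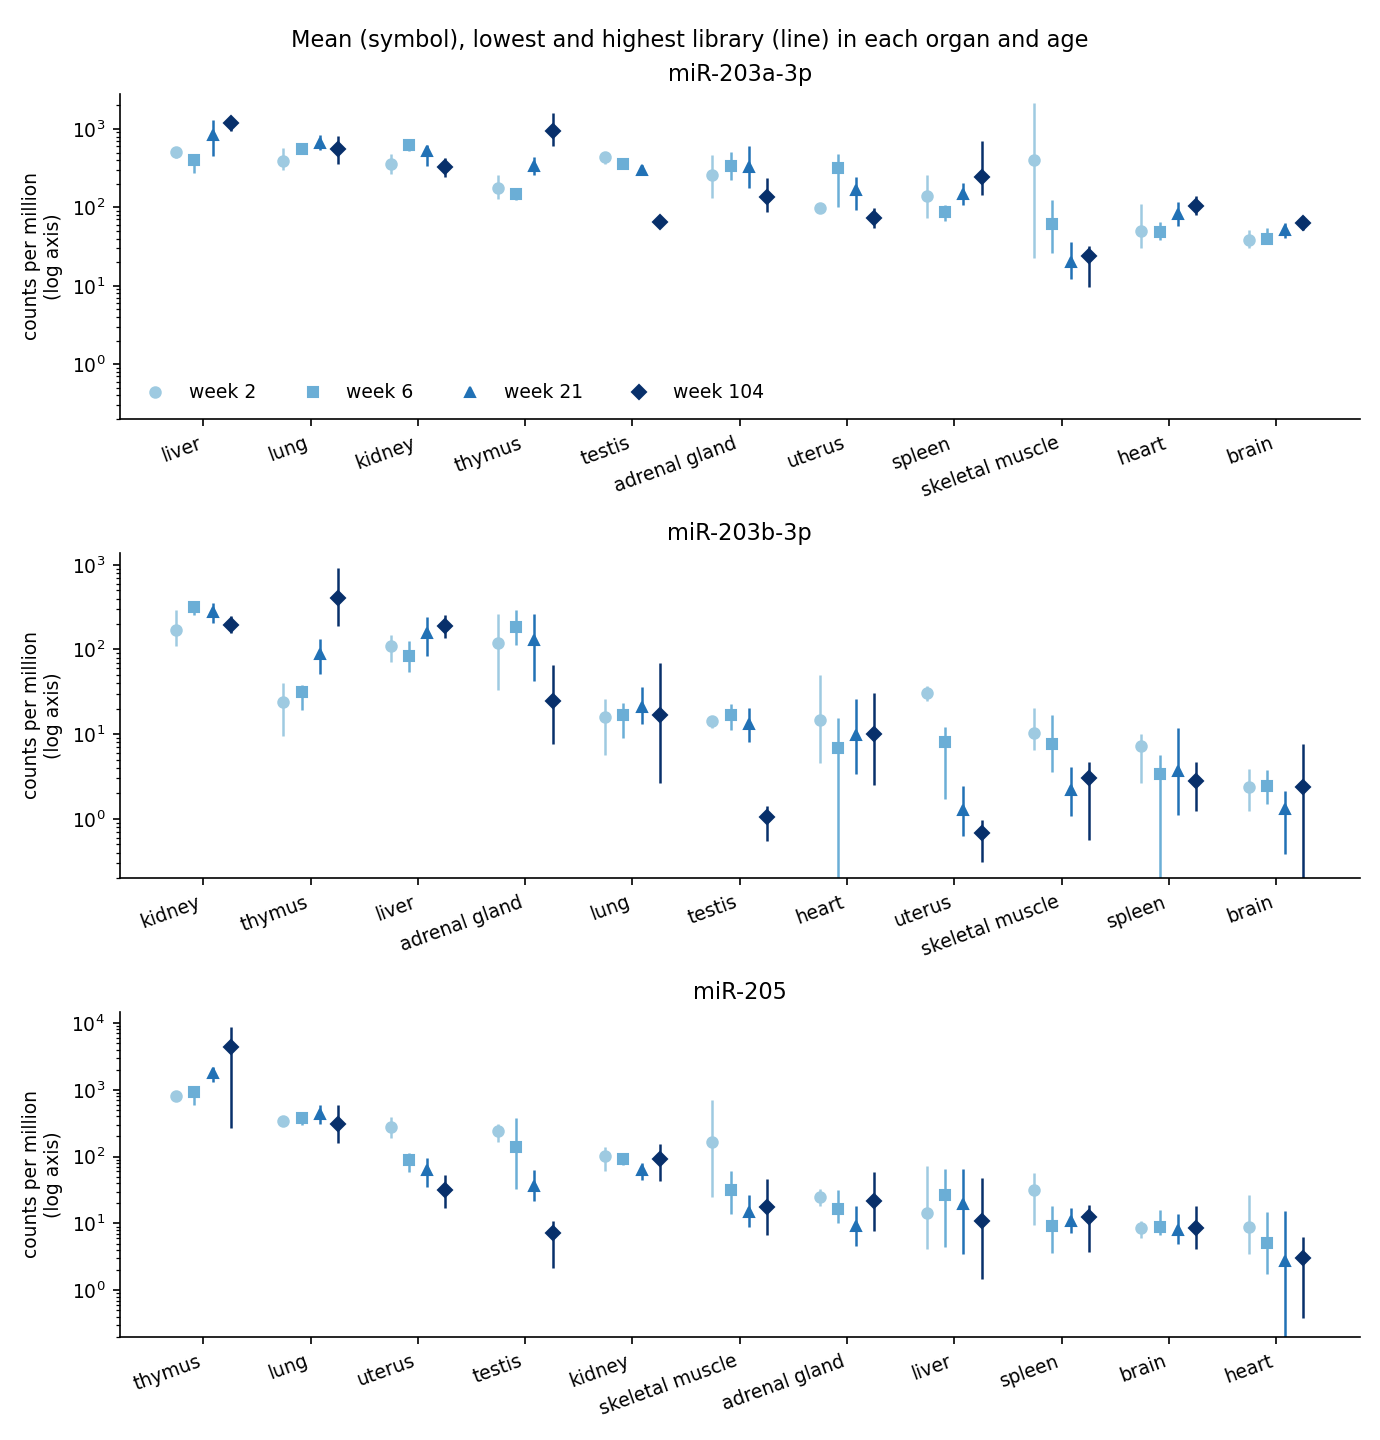
Level of miR-203a-3p, miR-203b-3p and miR-205 in CPM (log axis) in 11 organs at 4 ages. Symbols are means over 8 libraries (7 for brain at week 6 and spleen at week 104, 4 for testis and uterus), lines run from the lowest to the highest library, and a line that reaches the axis has its lowest library at or near 0. The thymus had the highest mean of miR-205 at every age, whereas miR-203a-3p was led by the liver or the kidney.

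The thymus is largest early in life and shrinks with age, losing thymocytes while epithelium, connective tissue and fat remain. The age comparison asks how the levels of these miRNAs differ over that span. miR-205 is given first, as the member highest in this organ. In females of week 2 it was at 786, 916, 747 and 785 CPM in replicates 1 to 4, and in males at 734, 773, 919 and 731 CPM. In females of week 6 it was at 1129, 976, 939 and 942 CPM, and in males at 589, 970, 777 and 1146 CPM. All 4 females of week 6 thus lay above those of week 2, whereas the males of the 2 ages overlapped.

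At week 21 all miR-205 values lay above all earlier ones. In females of week 21 it was at 1940, 2211, 1315 and 1946 CPM, and in males at 1932, 1598, 1547 and 1686 CPM. In females of week 104 it was at 5582, 4631, 5744 and 5703 CPM, all above every library of week 21. In males of week 104 it was at 526, 8693, 3408 and 264 CPM. Male replicates 1 and 4 of week 104, the libraries with low miR-181a-5p and miR-200 family, thus had less miR-205 than any library of week 2, whereas the highest value of all 32 thymus libraries was male replicate 2 (interval 8543 to 8846 CPM). The interval of the lowest, male replicate 4, ran from 245 to 283 CPM.

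miR-205 rose between the young and the adult thymus. From week 6 to week 21 it rose by log2 1.01 (SE 0.32, edgeR adjusted p = 0.0266), with all 8 later libraries above the highest earlier one. The same contrast called 101 of 616 miRNAs (16.4%). From week 2 to week 104 miR-205 rose by log2 2.00 (SE 0.33, edgeR adjusted p = 2.83e-06), with 6 of 8 libraries above and 2 below every library of week 2, in a contrast that called 357 miRNAs (58%). From week 2 to week 6 the difference was log2 0.20 (SE 0.32, edgeR adjusted p = 0.803), where 82 miRNAs (13.3%) were called.

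The step of miR-205 from week 21 to week 104 was the least firm. It was log2 0.80 (SE 0.32, edgeR adjusted p = 0.0444), with 6 libraries above and 2 below all of week 21, in a contrast that called 254 miRNAs (41.2%). Without the 2 male libraries it was 1.296 (edgeR adjusted p = 1.59e-09), and with library size as the only scaling 1.24 (adjusted p = 0.00338). The call was lost with the sequencing lane as a factor (0.44, adjusted p = 0.400), with a library total without the miR-181 family as the only scaling (0.78, adjusted p = 0.0732) and with the replicate number as a block (0.73). It was also lost without male replicate 2 (0.45) or 3 (0.74) or female replicate 3 (0.79) or 4 (0.73) of week 104, and without female replicate 1 of week 6 (0.74). At week 21, leaving out female replicate 1 (0.78), 3 (0.76) or 4 (0.81) or male replicate 2 (0.79), 3 (0.78) or 4 (0.80) lost it as well, with adjusted p from 0.0602 to 0.0796. The step from week 6 to week 21 was lost with library size alone (0.93, adjusted p = 0.0636), with the total without miR-181 (0.79, adjusted p = 0.102), and without female replicate 2 (0.99, adjusted p = 0.0502) or male replicate 1 (0.96, adjusted p = 0.0586) of week 6. Leaving out replicate 1, 2 or 3 of every group also lost it (0.96, 1.02 and 1.06), as leaving out replicate 2 or 3 lost the later step (0.45 and 0.61).

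miR-203a-3p rose at the same ages, and at week 104 its order among libraries was another. At week 2 it ran from 125.9 to 259 CPM (median 152), at week 6 from 123 to 169 CPM (median 151) and at week 21 from 261 to 441 CPM (median 314). At week 104 it was at 1054, 836, 715 and 609 CPM in females and at 1599, 712, 722 and 1338 CPM in males. The 2 male libraries with the least miR-205 thus had the most miR-203a-3p. Every library of week 104 lay above every library of week 21, and every library of week 21 above every library of weeks 2 and 6.

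The rises of miR-203a-3p were called with each alternative run. It rose by log2 1.23 (SE 0.17, edgeR adjusted p = 1.89e-06) from week 6 to 21, by 1.14 (SE 0.17, adjusted p = 8.83e-07) from week 21 to 104 and by 2.17 (SE 0.17, adjusted p = 5.37e-13) from week 2 to 104. The mean fell from 176 to 150 CPM between weeks 2 and 6, a difference of log2 -0.20 that was not called (edgeR adjusted p = 0.566) and turned to 0.03 without female replicate 1 of week 6 and to 0.06 without female replicate 4 of week 104.

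miR-203b-3p changed most with age in the thymus. At week 2 it ran from 9.40 to 40.2 CPM (median 22.3), with an interval of 5.96 to 14.1 CPM for the lowest library, from 23 counts. At week 6 it ran from 19.1 to 38.2 CPM (median 31.7) and at week 21 from 51.8 to 132.7 CPM (median 82.3). At week 104 it was at 530, 331, 195 and 188 CPM in females and at 917, 223, 259 and 582 CPM in males. As for miR-203a-3p, the ages 6, 21 and 104 did not overlap, and male replicates 1 and 4 of week 104 were the highest of all.

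Its rise was log2 1.55 (SE 0.29, edgeR adjusted p = 0.000223) from week 6 to 21 and 1.83 (SE 0.28, adjusted p = 1.69e-06) from week 21 to 104. From week 2 to week 104 miR-203b-3p rose by log2 3.88 (SE 0.31, edgeR adjusted p = 6.99e-13), a 14.7-fold difference, in all 8 libraries. From week 2 to 6 the difference of 0.49 was not called (edgeR adjusted p = 0.356). All 3 tested members were thus called in each contrast but the first, where 0 of 3 were called by edgeR or DESeq2 and 0 at an unadjusted p under 0.05. In the contrast of week 104 with week 2, 58% of all miRNAs were called, so a call there sets no miRNA apart.

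**Figure D2:**
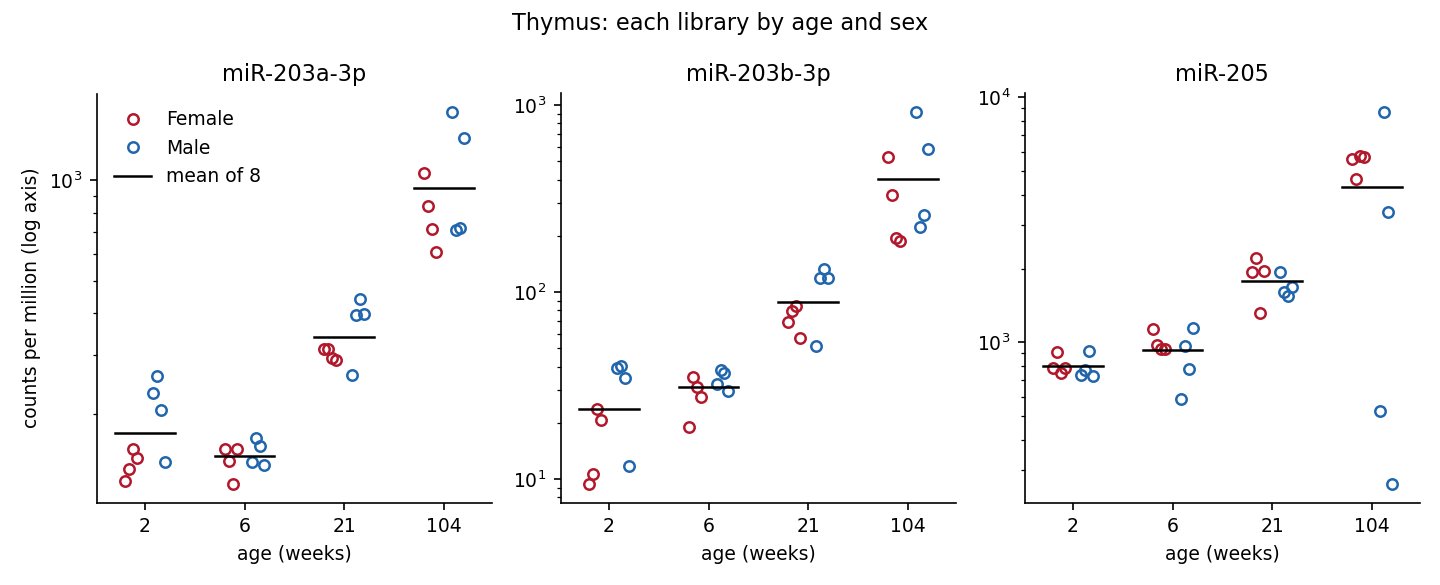
Level of 3 miRNAs in each of the 32 thymus libraries (CPM, log axis) by age in weeks. Each circle is a library, females in red and males in blue, and the black line is the mean of the 8 libraries of an age. miR-205 at week 104 ran from 264 to 8693 CPM, and the 2 lowest libraries were the 2 highest for miR-203a-3p and miR-203b-3p.

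The age change in the thymus was larger than the mean change in the 8 other organs of both sexes. The change from week 2 to week 104 in the thymus, minus the mean change in those organs, was log2 2.20 (SE 0.40) for miR-205, 1.59 (SE 0.30) for miR-203a-3p and 3.95 (SE 0.37) for miR-203b-3p. All 3 differences were called (edgeR adjusted p = 5.82e-07, 1.40e-06 and 1.29e-20), where 41.7% of the 616 miRNAs were. Set against single organs, miR-203a-3p was not called against the brain (0.77, adjusted p = 0.107), the heart (0.40, adjusted p = 0.512) or the liver (0.34, adjusted p = 0.5684), and its largest difference was against skeletal muscle (4.58), which was 1.37 without the 3 muscle libraries of week 2. miR-203b-3p ran from 2.49 against the liver to 5.49 against the adrenal gland, and miR-205 from 1.35 against the brain to 3.69 against skeletal muscle, the latter 1.76 without the 3 muscle libraries. Against the mean of the 8 organs, leaving out those 3 libraries gave 1.19 for miR-203a-3p, 3.91 for miR-203b-3p and 1.95 for miR-205, all called. With library size alone the differences were 2.52, 4.84 and 3.25, and without the 2 male thymus libraries 1.205, 3.34 and 2.64, all called.

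The thymus also lost thymocyte miRNAs with age, and these values stand beside the rise. Over all 616 miRNAs 25% were called higher and 33.0% lower between weeks 2 and 104, so calls within a list are to be read against those shares. The summed miRNAs of thymocytes and lymphocytes fell from a mean of 467510 CPM at week 2 to 88092 CPM at week 104, and 13 of 16 were called lower and 1 higher (median log2 -1.97 against -0.19 over all 616). Their most abundant miRNA, miR-181a-5p, made up 81.6% of that sum. The 13 miRNAs of the miR-17~92 group, known from dividing cells, were all called lower (median -2.55), and their sum fell from 57561 to 20259 CPM. A CPM is a share of a total that includes these miRNAs, and their part in the rise of miR-203 and miR-205 was not tested. With the miR-181 family left out of the total, the mean of miR-205 was 1390 CPM at week 2 and 4706 CPM at week 104 and that of miR-203a-3p 300.3 and 1004 CPM, while the median change of 311 miRNAs was log2 -0.52 with that total, 0.16 with the whole total and -0.13 with TMM scaling.

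Markers of other cell types differed with age too. In the miR-200 family 4 of 9 were called higher and 0 lower (median log2 0.49), and the sum went from 4129 to 8304 CPM, led by miR-141-3p (52.0% of the sum), which was not called (-0.03, edgeR adjusted p = 1). Among other epithelial and secretory miRNAs 4 of 7 were called higher and 1 lower (median 0.77), led by miR-182. miR-375-3p, known from endocrine and secretory cells, rose by log2 2.81 in that list. Since another member was called lower, miR-375-3p does not stand for the whole list. Among miRNAs of ciliated cells 4 of 6 were called higher and 2 lower (median 1.15), with miR-34c-5p the most abundant.

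Non-epithelial lists were taken in the same way. Mesenchyme and smooth muscle had 6 of 8 called higher and 0 lower (median log2 1.10), with miR-143-3p at 97.9% of the sum and itself at log2 0.01. Both miRNAs of the endothelial list were called higher (median 1.97; sum 4639 CPM at week 2 and 20435 CPM at week 104), led by miR-126a-5p. All 5 red-cell miRNAs were called higher (median 4.05; 1171 and 24665 CPM), led by miR-486. Of 7 striated muscle miRNAs 0 were called higher and 1 lower (median -0.03), with a mean sum of 158 and 279 CPM (114 CPM at week 104 without the 2 male libraries, when the list median was -0.65), led by miR-133a-3p. The mean of week 2 includes male replicate 2 at 550 CPM, where the median of that age was 93.6 CPM. None of the 9 lists held a miRNA at 0 in every thymus library, and the part of these lists in the result was not tested. With the lane as a factor the miR-200 family had 1 called higher and 1 lower, and without the 2 male libraries 7 higher and 0 lower. With the total without miR-181, where the median of all 616 was -0.52, the counts higher and lower were 2 and 1 for the miR-200 family, 2 and 2 for the other epithelial and secretory miRNAs and 4 and 1 for mesenchyme and smooth muscle. The median of the striated muscle list changed sign with library size alone, to 0.18, with DESeq2, to 0.09, and with the lane, to 0.07.

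A ratio of 2 miRNAs within a library does not involve its total, so each member was set over the summed miR-200 family of the same library. The log2 ratio of miR-205 was -2.35 ± 0.24 at week 2, -2.17 ± 0.13 at week 6, -1.53 ± 0.20 at week 21 and -1.12 ± 0.69 at week 104 (SD, n = 8 each). The mean ratio thus rose from age to age, with the widest spread at week 104. The ratio of miR-205 was higher at week 21 than at week 6 by 0.64 in 8 of 8 libraries (exact permutation p = 0.000155, adjusted p = 0.000829 over 16 tests, two-sided). It was higher at week 104 than at week 2 by 1.23 in 7 of 8 libraries (exact permutation adjusted p = 0.00332). The steps from week 2 to 6 (0.19, exact permutation adjusted p = 0.144) and from week 21 to 104 (0.41, adjusted p = 0.187) did not pass. The last step passed without the 2 male libraries (0.63, exact permutation adjusted p = 0.00381) and without replicate 4 of every group (0.61, adjusted p = 0.0247). With miR-200b-3p alone in place of the family its sign turned, to -0.35 (exact permutation adjusted p = 0.490).

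The ratios of the miR-203 members were taken in the same way. miR-203a-3p over the miR-200 family was higher at week 21 than at week 6 by log2 0.86 (exact permutation adjusted p = 0.00186) and at week 104 than at week 2 by 1.83 (adjusted p = 0.000829), the latter in all 8 libraries. The difference between weeks 104 and 2 was 0.85 without the 2 male libraries (exact permutation adjusted p = 0.00133). miR-203b-3p differed by 1.15 (exact permutation adjusted p = 0.00332) and 3.46 (adjusted p = 0.000829) in those contrasts, the latter 2.36 without the 2 male libraries (adjusted p = 0.00133). From week 21 to 104 neither passed (miR-203a-3p 1.17, exact permutation adjusted p = 0.179; miR-203b-3p 1.77, adjusted p = 0.0643), nor without the 2 male libraries (0.19 and 0.66), whereas miR-203b-3p passed without replicate 3 of every group (2.32, adjusted p = 0.0476). From week 2 to 6 neither passed (-0.21, exact permutation adjusted p = 0.194; 0.54, adjusted p = 0.173), except miR-203b-3p over miR-200c-3p alone (0.88, adjusted p = 0.0497). With miR-200b-3p alone below the line, the calls between weeks 104 and 2 were lost for miR-203a-3p (1.27, exact permutation adjusted p = 0.292) and miR-205 (0.67, adjusted p = 0.172), and that of miR-205 between weeks 21 and 6 was lost with miR-200b-3p (0.71, adjusted p = 0.0908) or miR-200c-3p (0.59, adjusted p = 0.139).

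Relations with the miR-200 family were computed within an age. Over the 8 thymus libraries of an age, Pearson's r of log2(CPM + 1) of miR-205 with the family was 0.41, 0.91, 0.64 and 0.94 at weeks 2, 6, 21 and 104. Those at week 6 (rho 0.95, exact permutation p = 0.00677 for r and 0.00114 for rho) and at week 104 (rho 0.88, exact permutation p = 0.00714 for r and 0.00724 for rho) passed adjustment over 12 relations (adjusted p of r = 0.0429 for each). Without the 2 libraries farthest from the median r was 0.84 at week 6 (exact permutation p = 0.0361, not adjusted) and 0.76 at week 104 (p = 0.142). At weeks 2 and 21 it was 0.25 and 0.02 without them. The difference between the r of miR-205 and of miR-203a-3p was not tested.

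miR-203a-3p and miR-205 had no positive relation that passed at any age. Their r was -0.09 (0.40 without the 2 farthest libraries), 0.03 (0.03), -0.38 (-0.21) and -0.84 at weeks 2, 6, 21 and 104. The last (rho -0.81, exact permutation p = 0.0211 for r and 0.0218 for rho, adjusted p = 0.0633 for r) did not pass, and without the 2 farthest libraries r was -0.09. It passed with values centred within sex (-0.80, exact permutation adjusted p = 0.0327) and with the total without miR-181 (-0.85, adjusted p = 0.0465). With that total the r at week 2 also passed (-0.84, exact permutation adjusted p = 0.0333). miR-203a-3p with the miR-200 family gave 0.64 (0.99 without the 2 farthest libraries, exact permutation p = 0.00278), 0.26 (-0.65 without them), -0.08 (-0.47 without them) and -0.84. The last (rho -0.74, exact permutation p = 0.0143 for r and 0.0458 for rho, adjusted p = 0.0573 for r) was 0.01 without the 2 farthest libraries. That relation passed with the total without miR-181 (-0.87, exact permutation adjusted p = 0.0333) and with values centred within sex (-0.84, adjusted p = 0.0133). None of the 8 lanes held more than 2 of the 8 libraries of an age, so no relation was computed within a lane.

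**Figure D3:**
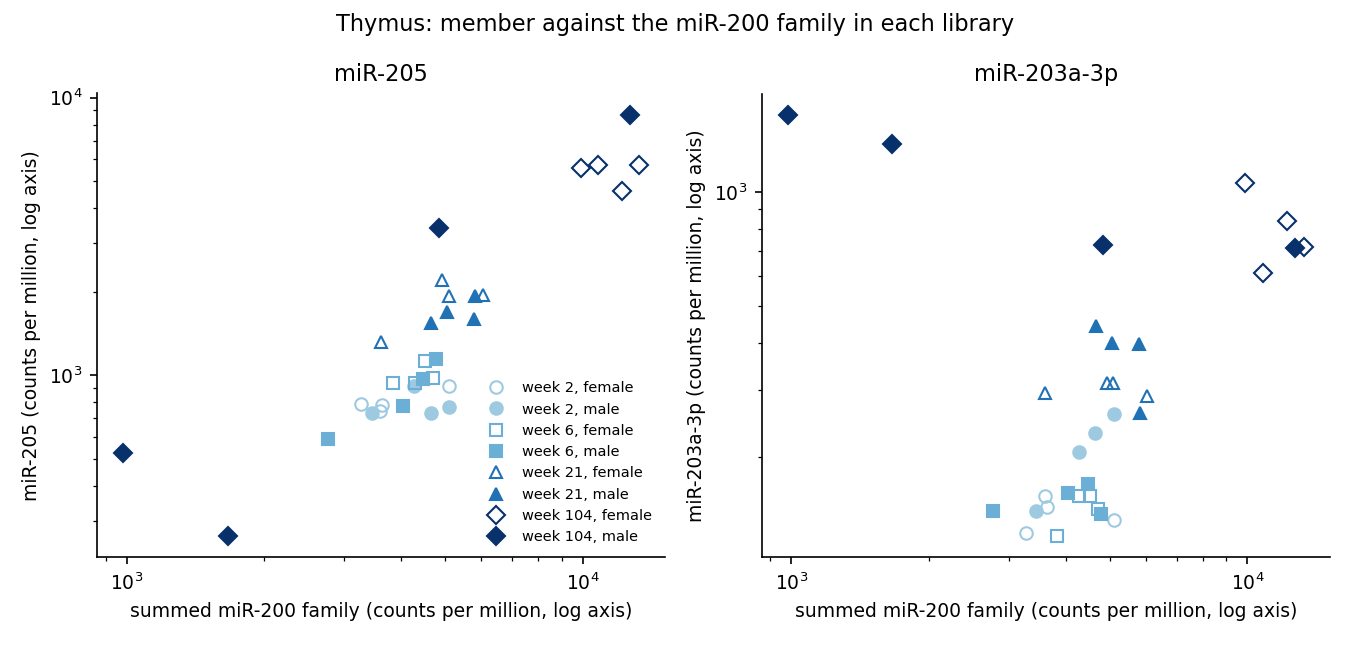
miR-205 (left) and miR-203a-3p (right) against the summed miR-200 family in each of the 32 thymus libraries, in CPM on log axes. Symbols give the age, open for females and filled for males. The 2 male libraries of week 104 at 982 and 1665 CPM of the miR-200 family had low miR-205 and the highest miR-203a-3p.

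The share of miR-203b-3p in the sum of miR-203b-3p and miR-203a-3p was examined after seeing the data, since these miRNAs lie on opposite strands of a shared locus. In the thymus the share was 11.2% ± 3.36 at week 2, 17.3% ± 3.06 at week 6, 20.3% ± 2.96 at week 21 and 28.0% ± 5.21 at week 104 (SD, n = 8 each). The log2 ratio of miR-203b-3p to miR-203a-3p was higher by 0.75 at week 6 than at week 2 (exact permutation adjusted p = 0.00456 over 4 tests), by 0.60 at week 104 than at week 21 (adjusted p = 0.00456) and by 1.63 at week 104 than at week 2 (adjusted p = 0.000622). From week 6 to 21 the difference of 0.29 did not pass (exact permutation adjusted p = 0.0744). The share thus went up with age in the thymus, and without the 2 male libraries the difference between weeks 104 and 2 was 1.51.

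Other organs had shares of their own. The kidney had the highest share at week 104, with 31.8% ± 4.01 at week 2, 33.2% ± 1.65 at week 6 and 37.5% ± 2.57 at week 104 (n = 8 each). In the adrenal gland the share was 30.7% ± 5.19 at week 2, 34.9% ± 2.71 at week 6 and 13.98% ± 5.54 at week 104. In the uterus it was 23.8% ± 3.56 at week 2 and 0.927% ± 0.387 at week 104 (n = 4 each). In the lung, where miR-203a-3p was among the highest, the share was from 2.70% to 3.94% at the 4 ages. The 2 miRNAs of this locus were thus not counted in a fixed proportion, and differences of the share between organs were not tested.

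**Figure D4:**
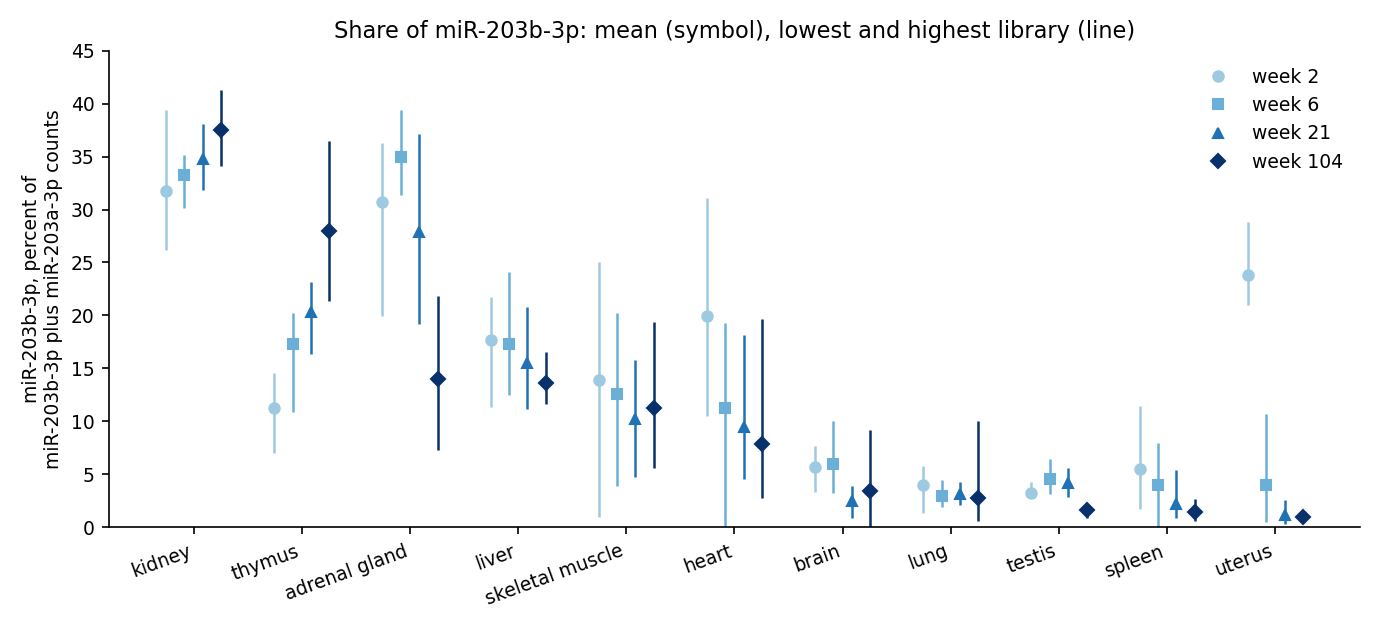
miR-203b-3p as a percentage of the summed miR-203b-3p and miR-203a-3p counts in 11 organs at 4 ages. Symbols are means over the libraries of an organ and age, and lines run from the lowest to the highest library. The mean went from 11.2% to 28.0% in the thymus and from 30.7% to 13.98% in the adrenal gland between weeks 2 and 104.

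Sex was compared next, since sex hormones are known to act on the thymus. Each value below is male minus female on the log2 scale. Over the 4 ages, male minus female thymus was log2 0.31 (SE 0.12) for miR-203a-3p, 0.59 (SE 0.20) for miR-203b-3p and -0.36 (SE 0.23) for miR-205. None was called (edgeR adjusted p = 0.169, 0.129 and 0.551), while 14 of 616 miRNAs (2.27%) were. At an unadjusted p under 0.05 there were 2 of the 3 members and 79 of the 616 miRNAs. DESeq2 called 0 of the 3. Without male replicate 2 of week 104 the differences of miR-203a-3p (0.38, edgeR adjusted p = 0.0187) and miR-203b-3p (0.68, adjusted p = 0.0217) were called, as was that of miR-203b-3p without female replicate 1 of week 104 (0.69, adjusted p = 0.0493).

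At single ages the sexes differed most at week 104, where the spread of the males was wide. Male minus female there was log2 0.66 (SE 0.24) for miR-203a-3p, 0.92 (SE 0.39) for miR-203b-3p and -0.73 (SE 0.45) for miR-205, none called (edgeR adjusted p = 0.111, 0.188 and 0.381) among 12 calls of 616 (1.95%). Leaving out the 2 male libraries gave 0.00, -0.18 and 0.17. Without male replicate 2 all 3 were called (0.87, 1.22 and -1.55), and DESeq2 called miR-203a-3p (0.78, adjusted p = 0.0328). At weeks 2, 6 and 21 edgeR called 0 of the 3 members and 5 (0.812%), 0 (0%) and 0 (0%) of 616 miRNAs. At an unadjusted p under 0.05 these 3 ages had 67, 49 and 39 miRNAs and 0 members, and DESeq2 called 11, 0 and 0 miRNAs and 0 members.

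The age change did not differ between the sexes by a test that passed. The change from week 2 to 104 in males minus that in females was log2 0.42 (SE 0.33) for miR-203a-3p, 0.27 (SE 0.58) for miR-203b-3p and -0.40 (SE 0.64) for miR-205, where 0.974% of all miRNAs were called. Leaving out the 2 male libraries gave -0.04, -0.65 and 0.70. The difference of miR-203b-3p was -0.35 without male replicate 1 of week 104. The sign of each member thus changed with a setting.

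Elsewhere, the adrenal gland differed by sex in all 3 members. Means over the ages were 296 CPM in males and 231 CPM in females for miR-203a-3p, 135 and 95.97 CPM for miR-203b-3p and 23.1 and 12.8 CPM for miR-205. The log2 differences were 0.61 (SE 0.16, edgeR adjusted p = 0.0218), 0.96 (SE 0.24, adjusted p = 0.0180) and 1.06 (SE 0.19, adjusted p = 0.000488), against 5.03% of all miRNAs called. With library size alone miR-203a-3p (0.44, adjusted p = 0.102) and miR-203b-3p (0.77, adjusted p = 0.0528) were not called, nor were they without replicate 2 (0.51 and 0.85) or 3 (0.39 and 0.66) of every group. The call of miR-205 held with each alternative run.

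In the liver miR-203b-3p was lower in males (108 CPM) than in females (161 CPM), by log2 -0.57 (SE 0.13, edgeR adjusted p = 0.0151), among 8 calls (1.3%). It was not called without replicate 1 (-0.58, adjusted p = 0.0650) or 2 (-0.39, adjusted p = 0.400) of every group. Averaged over the ages, edgeR called 0 members in the brain, heart, kidney, lung, skeletal muscle and spleen, where it called 0.325%, 0.649%, 1.95%, 0.162%, 0.812% and 0% of the miRNAs. DESeq2 called 0 members there in the same contrast. In the spleen 61 miRNAs, and 2 members, had an unadjusted p under 0.05, and DESeq2 called 0 miRNAs. In the lung 56 miRNAs, and 1 member, had an unadjusted p under 0.05.

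Single ages in these 8 organs were looked at after seeing the data. Of 120 tests of a member, at 4 ages and for the age change of males minus females, edgeR called 5 and DESeq2 called 9, and no adjustment was made over the 40 contrasts. Among all miRNAs, a single contrast had from 0 to 43 calls by edgeR and from 0 to 62 by DESeq2. In the lung at week 104 miR-203b-3p (log2 2.09, edgeR adjusted p = 0.0257) and miR-205 (0.99, adjusted p = 0.0306) were higher in males, where 2.6% of all miRNAs were called. Male replicate 1 stood apart there with 68.6 CPM of miR-203b-3p: without it the difference was 0.95 (adjusted p = 0.453), and without any 1 of the 4 females 1.84 to 2.25, not called. That of miR-205 lost its call without female replicate 1, 2 or 3 or male replicate 2 or 3 (0.58 to 1.0009). The age change of miR-203a-3p in the lung was larger in males by 1.15 (edgeR adjusted p = 0.0250; 1.95% called), a call lost without female replicate 4 or male replicate 1, 2 or 4 of week 2, or female replicate 1 or 2 or male replicate 2 or 3 of week 104 (0.91 to 1.12). In the adrenal gland at week 104 miR-205 was higher in males by 1.96 (edgeR adjusted p = 0.00756; 1.14% called), which was 1.46 and not called without male replicate 4 (adjusted p = 0.0640). In the liver at week 21 miR-203b-3p was lower in males by 0.99 (edgeR adjusted p = 0.0345; 2.11% called), and was not called without any 1 of the 8 libraries but female replicate 4. These 5 calls by edgeR were thus each lost without some single library, an alternative likewise added. DESeq2 called these 5 as well. DESeq2 alone called miR-203a-3p in the lung at week 2 (-0.60, adjusted p = 0.0469, 18 miRNAs called in all) and in the spleen at week 104 (-1.23, adjusted p = 0.0373, 10 called). For that spleen contrast edgeR gave -1.28, and -0.11 without female replicate 1. In the adrenal gland DESeq2 alone called miR-205 at week 21 (1.15, adjusted p = 0.0376, 62 called) and miR-203b-3p at week 104 (1.81, adjusted p = 0.0287, 11 called).

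With age, the other organs moved in different directions. In the liver miR-203a-3p rose from 430 to 580 CPM at week 2 (median 504) to 929 to 1424 CPM at week 104 (median 1149). Its change was log2 1.503 (SE 0.16, edgeR adjusted p = 4.25e-10) and that of miR-203b-3p 1.05 (SE 0.19, adjusted p = 1.21e-05), where 44.6% of all miRNAs were called. miR-203a-3p also rose in the heart by 1.63 (SE 0.20, adjusted p = 1.04e-08; 54.7% called), in the brain by 1.12 (SE 0.11, adjusted p = 4.45e-10; 54.7% called) and, over both sexes, in the lung by 0.68 (SE 0.13, adjusted p = 6.15e-05; 49.5% called). Within the sexes, looked at after seeing the data, the lung change was 0.11 in females (461 to 436 CPM, edgeR adjusted p = 0.718) and 1.26 in males (329 to 661 CPM, adjusted p = 2.36e-06). With library size alone the rise was 1.08 in the heart and 0.70 in the brain. The heart means of miR-203a-3p were 49.8 and 105 CPM, and those of the brain 38.9 and 62.8 CPM, so in these organs it rose from low levels.

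In the testis all 3 members were lower at week 104 than at week 2. There miR-205 was at 166 to 308 CPM at week 2 and at 2.19 to 10.8 CPM at week 104 (n = 4 each), with no overlap. It fell by 3.57 on the log2 scale (SE 0.62, edgeR adjusted p = 0.000102), miR-203b-3p fell by 2.20 (SE 0.37, adjusted p = 7.28e-05) and miR-203a-3p fell by 1.12 (SE 0.22, adjusted p = 0.000263), where 55.2% of all miRNAs were called. No testis library of week 104 exceeded 8 counts of miR-203b-3p, near the floor of 3 counts, so the size of its fall is uncertain. The testis depends on the scaling: with library size alone the changes were log2 -2.76 for miR-203a-3p, -3.74 for miR-203b-3p and -5.05 for miR-205.

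In the uterus miR-203b-3p was at 24.9 to 37.1 CPM at week 2 and at 0.310 to 0.972 CPM at week 104 (n = 4 each). No uterus library of week 104 exceeded 8 counts of it, near the floor of 3 counts, so the size of its fall is uncertain. miR-203b-3p changed by log2 -4.51 (SE 0.52, edgeR adjusted p = 3.80e-07). The change of miR-205 was -2.12 (SE 0.31, edgeR adjusted p = 8.11e-06), from a mean of 275 to 31.5 CPM. In this contrast 44.6% of all miRNAs were called. miR-203a-3p went from a mean of 96.8 CPM at week 2 to 316 CPM at week 6 and 74.1 CPM at week 104, a difference of log2 2.28 between weeks 6 and 2 (edgeR adjusted p = 0.000170) and of 0.55 between weeks 104 and 2, which was not called (adjusted p = 0.262). The sign of the latter depends on the scaling: with library size alone it was -0.39 (adjusted p = 0.388), with 3 of 4 libraries of week 104 below all of week 2 in CPM. With that scaling miR-203b-3p changed by -5.43 and miR-205 by -3.12 between weeks 104 and 2. In the adrenal gland miR-203b-3p changed by log2 -1.97 (SE 0.35, edgeR adjusted p = 2.27e-05; 45% called), with 7 of 8 libraries of week 104 below all of week 2. In the kidney it changed by 0.46 (SE 0.11, adjusted p = 0.000538; 43.7% called), which library size alone did not call (0.24, adjusted p = 0.174).

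In skeletal muscle the calls of miR-203a-3p and miR-205 rest on the 3 libraries of week 2 named above. miR-203a-3p changed by log2 -2.73 (SE 0.63, edgeR adjusted p = 0.000291), miR-205 by -2.07 (SE 0.51, adjusted p = 0.000696) and miR-203b-3p by -0.80 (SE 0.31, adjusted p = 0.0271), where 59.7% of all miRNAs were called. Without the 3 libraries these were 0.40 (adjusted p = 0.281), -0.21 (adjusted p = 0.668) and -0.57 (adjusted p = 0.174), none called, although all 8 libraries of week 104 lay below every library of week 2 for miR-203b-3p. Leaving out female replicate 1 of week 2 alone gave -1.53 for miR-203a-3p and -1.34 for miR-205, and leaving out male replicate 4 gave -1.61 for miR-203a-3p. With library size alone the changes were -3.78 for miR-203a-3p, -3.09 for miR-205 and -1.73 for miR-203b-3p, and without replicate 3 of every group that of miR-205 was -3.06. miR-203b-3p was not called without replicate 2 of every group (-0.62, adjusted p = 0.148).

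In the spleen, where 39.6% of all miRNAs were called, miR-203a-3p changed by log2 1.10 (SE 0.25, edgeR adjusted p = 0.000718), miR-205 by -1.08 (SE 0.31, adjusted p = 0.00509) and miR-203b-3p by -1.11 (SE 0.43, adjusted p = 0.0393). The female library of week 104 that was left out bears on them: with it, miR-205 was 0.01 (adjusted p = 1) and miR-203b-3p -0.23 (adjusted p = 0.7997). Without replicate 1 of every group, which holds the female library of week 104 at 709 CPM, miR-203a-3p was 0.62 and still called, while miR-205 was -0.93 and not called (adjusted p = 0.0640). miR-203b-3p was also not called with DESeq2 (-1.05, adjusted p = 0.0527), with the replicate number as a block, or without replicate 1 (-0.92) or 2 (-0.92) of every group. The sources report low RNA integrity for the 8 spleens of week 2, so that in the spleen age and RNA integrity cannot be told apart. Whether the change differed between any pair of these organs was tested for the thymus alone.

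The miRNAs whose levels were most like each member were named by a fixed measure, Pearson's r of log2(CPM + 1), and no p is given. Over the 44 groups of organ and age, which share organs and ages, and 457 miRNAs, those most like miR-205 were miR-141-5p (r 0.73), miR-141-3p (0.68), miR-200c-3p (0.67), miR-429 (0.58) and miR-200a-3p (0.56). All 5 belong to the miR-200 family. Those most like miR-203a-3p were miR-203b-3p (0.75), miR-375-3p (0.66), miR-3559-3p (0.62), miR-215 (0.61) and miR-3559-5p (0.60). miR-205 stood at rank 25 for miR-203a-3p (r 0.48).

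Over the 32 thymus libraries and 311 miRNAs, which share an organ and its age differences, the first 5 of miR-203a-3p and of miR-205 had no miRNA in common. miR-203a-3p was most like miR-378a-3p (r 0.98), miR-365-3p (0.98), miR-203b-3p (0.97), miR-378a-5p (0.96) and miR-23a-3p (0.95). miR-205 was most like miR-672-5p (0.92), miR-200a-3p (0.92), miR-182 (0.86), miR-200a-5p (0.82) and miR-152-3p (0.82). The r of miR-203a-3p with miR-205 was 0.44 there, and miR-205 stood at rank 118 of the miRNAs most like miR-203a-3p.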

How the data were processed

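The deposited table holds raw counts of mature miRNAs per library. The authors trimmed reads with fastp 0.23.2, kept reads of 16 to 35 bases, aligned them with Bowtie 1.3.1 to miRBase with fewer than 2 mismatches, and dropped miRNAs below 1 count per library on average. The members and the lists of other miRNAs were chosen with earlier results of these data known. Levels are counts over the column total. Ages, sexes and organs were tested with edgeR 4.0.16 in R 4.3.3 (TMM scaling, quasi-likelihood test, a coefficient per group, all 616 miRNAs, Benjamini-Hochberg adjustment per contrast, called under 0.05). Ratios (pseudocount 1) and relations were tested with two-sided exact permutation tests. Alternatives were DESeq2 1.42.0, library size alone, a minimum mean count of 10, totals without miR-181, lane, blocks, other pseudocounts and left-out libraries. The edgeR script was tested on simulated data. Each replicate is a separate rat, and no replicate columns were identical. Sequences and positions are from RefSeq (GRCr8).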

Additional observations from a re-analysis of the deposited data

Results flagged for a closer look

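Libraries far from the others were sought for each member but miR-203a-5p in each organ and age, with the sexes together except in the thymus. A library stood apart in 23 groups and none did in 121, where chance gives about 1 in 20. In the thymus, with groups of 4 libraries, the only group was female week 104, where replicate 2 had 4631 CPM of miR-205 and the nearest library 5582 CPM. The search looks for a single far library in a group. It did not flag male replicates 1 and 4 of week 104, which were low in miR-205 together. In skeletal muscle at week 2, male replicate 4 had 2158 CPM of miR-203a-3p and 697 CPM of miR-205. In the heart at week 2, female replicate 3 had 111 CPM of miR-203a-3p, 50.1 CPM of miR-203b-3p and 26.5 CPM of miR-205. In the brain at week 6, male replicate 2 had 54.0 CPM of miR-203a-3p and 15.8 CPM of miR-205. These 3 libraries, and male replicate 4 of the adrenal gland at week 104 below, were thus apart in more than 1 member.

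miR-203a-3p was also apart in the spleen at week 104 (female replicate 1, 709 CPM) and the uterus at week 2 (replicate 3, 110 CPM). miR-203b-3p was apart in the adrenal gland at week 2 (male replicate 3, 261 CPM) and week 104 (male replicate 4, 65.1 CPM) and in the brain at week 104 (female replicate 4, 7.73 CPM). It was also apart in the kidney at week 2 (female replicate 2, 295 CPM), the lung at week 104 (male replicate 1, 68.6 CPM) and the spleen at week 21 (female replicate 4, 11.7 CPM). miR-205 was apart in the adrenal gland at week 6 (male replicate 2, 31.7 CPM), week 21 (male replicate 1, 18.4 CPM) and week 104 (male replicate 4, 58.8 CPM), and in the heart at week 21 (male replicate 3, 15.5 CPM). It was also apart in the liver at week 2 (male replicate 1, 72.7 CPM) and week 104 (female replicate 4, 47.4 CPM) and in the testis at week 6 (replicate 4, 377 CPM). What sets these libraries apart was not tested. For the female brain library, the study itself reports a share of miRNA reads well below that of the average brain library. That library was kept in the main comparisons, as in the study.

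The change from week 2 to week 104 differed between the thymus and the mean of the 8 other organs, by log2 1.59 for miR-203a-3p, 3.95 for miR-203b-3p and 2.20 for miR-205.

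The 2 libraries outside the comparisons carried these miRNAs too. The male brain library of week 6 had 139 CPM of miR-203a-3p, 35.3 CPM of miR-203b-3p and 184 CPM of miR-205, where the highest of the 7 brain libraries kept at that age had 54.0, 3.74 and 15.8 CPM. The female spleen library of week 104 had 216 CPM of miR-203a-3p, 50.1 CPM of miR-203b-3p and 271 CPM of miR-205, where the highest of the 7 kept had 709, 4.65 and 18.9 CPM.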

How the results depend on the processing

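The alternatives "without the 2 male thymus libraries", "without the 3 muscle libraries" and those that leave out a single library were chosen after seeing the data. In the thymus miR-203a-3p, miR-203b-3p and miR-205 kept their direction and their call between weeks 104 and 2 under every alternative run (log2 1.74 to 2.46, 3.41 to 4.19 and 1.68 to 2.63). The cause of each change below was not tested. Between weeks 104 and 21, miR-205 was not called with the lane (0.44) or the total without miR-181 (0.78), and left-out replicates or single libraries gave 0.45 to 1.07, some not called (replicates 2 and 3 among them). Between weeks 21 and 6 it was not called with library size alone (0.93) or the total without miR-181 (0.79), and left-out replicates or single libraries gave 0.95 to 1.06, some not called (replicates 1, 2 and 3 among them). miR-203a-3p between weeks 6 and 2 ran from -0.235 to 0.0633 without single libraries or replicates.

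Replicate numbers name rats within a group and do not pair ages: deviations of thymus libraries with the same number had a mean r of 0.01. With the replicate block, miR-205 between weeks 104 and 21 (0.73) and miR-203b-3p in the spleen (-0.99) were not called, and no other call of a member changed. Libraries of different organs from the same number had a mean r of 0.00 with the thymus, and the block of the rat changed no call of a member between organs. The block moved the count of calls between weeks 104 and 2 from 357 to 345.

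Sex in the thymus, averaged over ages, ran from 0.21 to 0.38 (miR-203a-3p) and 0.38 to 0.69 (miR-203b-3p) without replicates. At week 104 it ran from 0.31 to 0.88, 0.31 to 1.27 and, for miR-205, -1.59 to -0.32. DESeq2 gave 0.78 for miR-203a-3p, and without the 2 male libraries miR-203b-3p was -0.18 and miR-205 0.17. The age change of males minus females turned sign for miR-203a-3p with library size alone (-0.12) and without the 2 male libraries (-0.0378). For miR-203b-3p it turned with library size alone (-0.32), the lane (-0.17), the total without miR-181 (-0.11), without the 2 male libraries (-0.65) and among left-out replicates (-0.35 to 0.81). For miR-205 it turned without the 2 male libraries (0.70) and among left-out replicates (-1.34 to 0.0759).

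In the adrenal gland, sex with library size alone was 0.44 (miR-203a-3p) and 0.77 (miR-203b-3p), and without replicates 0.39 to 0.73 and 0.66 to 1.11. In the liver miR-203b-3p ran from -0.67 to -0.39. At week 104 in the spleen miR-203a-3p ran from -1.68 to 0.0365 without replicates.

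For miR-203a-3p the organ in first place gave, with DESeq2, -0.0509, 0.50 and 0.62 at weeks 2, 21 and 104 (liver). A minimum count gave 0.55 (kidney, week 6), 0.55 (liver, week 21) and 0.61 (week 104), and 9 organs, which leave out the uterus, 0.73 (week 6) with sex as a covariate or without, the latter added. Without the 2 male thymus libraries week 104 gave 0.87, and without replicates the liver ran from -0.31 to 0.14, 0.14 to 0.58 and 0.21 to 0.79. For miR-203b-3p, library size alone gave 0.50 (kidney, week 2) and 1.03 (thymus, week 104), the latter -0.12 without the 2 male libraries. Without replicates these ran from 0.63 to 0.92 and -0.16 to 0.81.

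Against single organs, the age change of miR-203a-3p in the thymus was 0.77 (brain), 0.40 (heart) and 0.34 (liver). In the spleen, all 320 libraries gave 0.0139 for miR-205 and -0.23 for miR-203b-3p, DESeq2 -1.05 for miR-203b-3p, and left-out replicates -1.12 to -0.93 and -1.35 to -0.92. In the kidney miR-203b-3p was 0.24 with library size alone. In muscle, without the 3 libraries, miR-203a-3p was 0.40, miR-205 -0.21 and miR-203b-3p -0.57, the last -0.99998 to -0.62 without replicates.

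Over the miR-200 family, miR-200b-3p alone gave 1.27 for miR-203a-3p and 0.67 for miR-205 (weeks 104 and 2), -0.35 (weeks 104 and 21) and 0.71 (weeks 21 and 6) for miR-205. miR-200c-3p alone gave 0.13 for miR-203a-3p and 0.88, called, for miR-203b-3p (weeks 6 and 2) and 0.59 for miR-205 (weeks 21 and 6). Between weeks 104 and 21, miR-205 was 0.63 without the 2 male libraries and 0.32 to 0.61 without replicates (called for replicate 4), and miR-203b-3p 0.91 to 2.32 (called for replicate 3). Relations turned sign with the total without miR-181 for miR-205 with the miR-200 family at week 2 (r -0.21) and miR-203a-3p with miR-205 at week 6 (-0.0761), and with values centred within sex at week 2 (0.0238). Without the 2 male libraries r at week 104 was 0.00752 for miR-203a-3p and 0.76 for miR-205 with the family, and that of miR-205 at week 6, 0.91, no longer passed.

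Thymus means with TMM factors were 227 (miR-203a-3p) and 1081 CPM (miR-205) at week 2, and 177 (miR-203a-3p) and 37.4 CPM (miR-203b-3p) at week 6. With totals without miR-181 they were 300.3, 250.5 and 505 CPM for miR-203a-3p at weeks 2, 6 and 21, 40.03, 52.2 and 132 CPM for miR-203b-3p, and 1390, 1546 and 2673 CPM for miR-205.

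Higher and lower calls in the thymus moved with the setting. Between weeks 104 and 2 154 of 357 were higher, and 111 of 346 without miR-181. Between weeks 104 and 21 121 of 254 were higher, 154 of 262 with DESeq2 and 175 of 269 with library size alone. Between weeks 21 and 6 they were 67 and 34, 69 and 51 without the 2 male libraries, 62 and 63 with DESeq2, 39 and 74 without miR-181, and 66 and 20 with the lane. Between weeks 6 and 2 they were 21 and 61, 31 and 52 with DESeq2, and 59 and 60 without the 2 male libraries. The minimum count gave 47 calls among 311 tested, against 82 among 616, between weeks 6 and 2. Left-out replicates gave 62 to 82 against 101 between weeks 21 and 6. For sex in the thymus DESeq2 gave 24 calls against 14, and at week 104 34 against 12. The median over 311 miRNAs between weeks 104 and 2 was -0.13, 0.16 with library size alone, 0.03 with DESeq2 and -0.52 with library size without miR-181. Low counts limit what can be read for miR-203a-5p, which passed 3 counts in 28 libraries.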
